A study of Rattus norvegicus with 6 samples.

Results

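The Polo-like kinases, Sipa1l1, Pcdh8, Taok2 and Cdh2 are 8 genes grouped here around the weakening of synapses and dendritic spines after high neuronal activity. They were Plk1, Plk2, Plk3 and Plk4 of the kinase family, the Plk2 target Sipa1l1, the protocadherin Pcdh8 (arcadlin), its partner kinase Taok2 and the cadherin Cdh2. Plk1 and Plk4 were included as members of the kinase family. All probe sets whose single gene symbol in the array annotation was one of these genes were taken, which gave 10 of the 31099 probe sets of the array and 8 of the 14218 genes named by a single symbol. Cdh2 had 3 probe sets and each other gene had 1.

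The study asked which genes of the hippocampus respond when inhibition is blocked. RNA was taken from organotypic hippocampal cultures of P4 Wistar rats, that is, from slices of hippocampus kept alive in roller tubes, in 3 biological replicas. In each replica the cultures of 2 littermates were divided, so that some were left untreated (control) and the rest received 20 µM gabazine for 90 min, and a control and a gabazine array of the same number formed a pair. Gabazine is an antagonist of GABA-A receptors, the chloride channels of fast inhibition, and every array held RNA of the whole slice, neurons and glia together. The sources name no genetic change in either group, and the age of P4 is that of the labels, while the methods give P4 to P5 at dissection.

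Neurons that fire strongly for long lower the strength of their excitatory synapses, a form of homeostatic plasticity. Plk2 (SNK) is known as an activity-induced kinase that moves into spines, where it phosphorylates the spine scaffold Sipa1l1 (SPAR), a protein that inactivates the small GTPase Rap, and so marks it for degradation by the proteasome. Pcdh8 is an activity-induced adhesion protein that binds Cdh2 (N-cadherin) at the synapse and, through Taok2 and the kinase p38, brings about the internalization of both adhesion proteins, while Plk1 and Plk4 are best known for spindle and centriole assembly in dividing cells.

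Of the 8 genes, Pcdh8 and Plk2 were higher in gabazine in all 3 pairs, by a mean of 3.12-fold for Pcdh8 and of 1.67-fold for Plk2. For the 6 other genes no probe set went the same way in all 3 pairs, and their mean log2 ratios lay between -0.17 and 0.20, both of them from probe sets of Cdh2. No probe set of the array, and so none of these 10, passed an adjusted p of 0.05 in limma, a linear model fitted to all probe sets with the pair as a block (0% of 31099), while 571 probe sets (1.84%) were higher and 835 (2.68%) lower with a p below 0.05 before adjustment. Pcdh8 and Plk2 belonged to the 571.

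The 250 bases before the annotated start of transcription are shown for Plk2 and Pcdh8, the genes that were higher in every pair, since short motifs in this stretch are where activity-regulated factors are known to bind. The sequences are those of RefSeq on the rat build GRCr8, 5′ to 3′ along the gene's strand, and 7 of the 8 genes had an entry, with Cdh2 the exception. Capitals mark the full cAMP response element (CRE, TGACGTCA) and GC boxes (GGGCGG, or CCGCCC on the other strand) of Plk2, which lies at chr2:43702286-43702535 on the plus strand, and the TATA box (TATAAA) of Pcdh8, which lies at chr15:61612091-61612340 on the minus strand.
Plk2: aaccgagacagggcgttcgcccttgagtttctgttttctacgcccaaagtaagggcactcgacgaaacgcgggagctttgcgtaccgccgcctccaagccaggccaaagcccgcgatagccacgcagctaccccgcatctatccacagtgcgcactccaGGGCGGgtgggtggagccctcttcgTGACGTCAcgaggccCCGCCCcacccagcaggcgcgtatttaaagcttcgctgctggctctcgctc
Pcdh8: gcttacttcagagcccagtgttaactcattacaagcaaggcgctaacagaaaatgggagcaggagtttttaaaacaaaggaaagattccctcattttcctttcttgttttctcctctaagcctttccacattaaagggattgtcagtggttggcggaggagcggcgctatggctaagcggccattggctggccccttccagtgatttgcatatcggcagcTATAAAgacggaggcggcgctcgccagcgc

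Both strands were searched for 7 motifs, the CRE, the short CRE (TGACG), the AP-1 site (TGANTCA), the TATA box, the GC box, the CArG box of serum response factor and the MEF2 site. The short CRE is part of the full CRE, so that a full CRE was counted as the short CRE too, on both strands. The full CRE stood in the stretches of Plk2 and Plk4, with 58 and 19 bases between the motif and the start, and in 1.59% of the 33469 promoters of the same length. The 28 bases around it are set side by side for both genes, since Plk2 was higher in gabazine in 3 of 3 pairs and Plk4 in 1 of 3. They lie at chr2:43702460-43702487 and chr2:125730443-125730470, both on the plus strand, with the motif in capitals.
Plk2: gccctcttcgTGACGTCAcgaggccccg
Plk4: tggagagtgcTGACGTCAccgccagcct

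Pcdh8, which had the larger difference, held neither the full CRE nor the short CRE in this window. Pcdh8 had a TATA box 24 bases before its start (12.9% of all promoters held 1), and Taok2 had 1 on the opposite strand, 211 bases before the start. Plk3 held the short CRE at 122 and 54 bases (18.2% of promoters). The GC box stood in Plk1, Plk2 and Sipa1l1 (30.5% of promoters). Sipa1l1 had 2 annotated starts, 1 with a GC box at 22 and the short CRE at 186 bases and the other with a GC box at 49 bases. AP-1 (6.34% of promoters), the CArG box (1.50%) and MEF2 (2.96%) had no match in any of these stretches. A match is a run of letters and no measured binding.

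**Figure D1:**
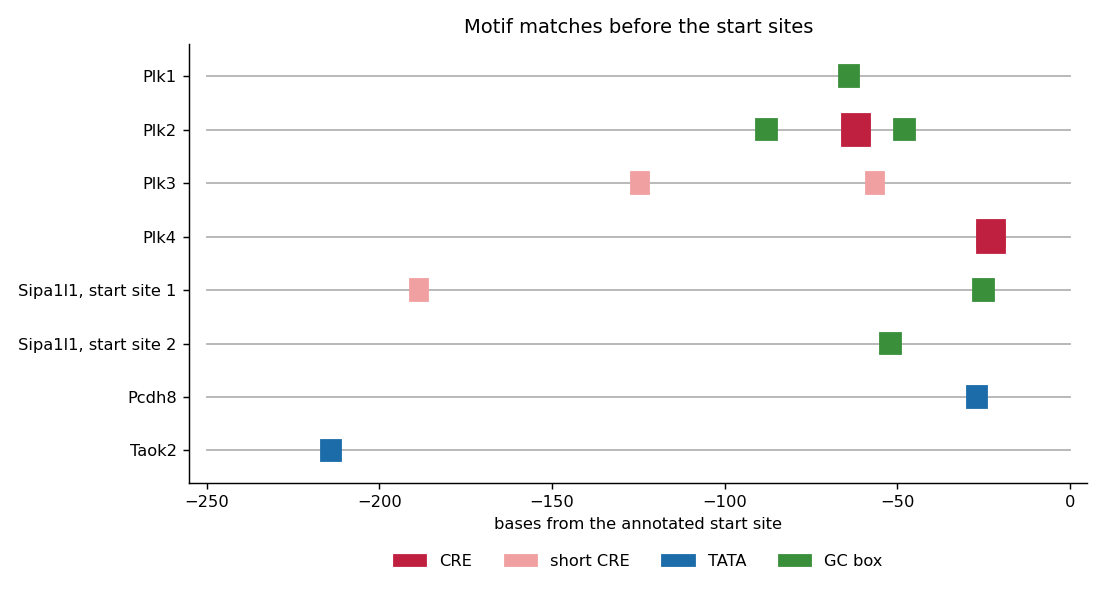
Matches of 4 motifs in the 250 bases before each annotated start site, with the distance from the start in bases on the x axis and 1 line per start site. The full CRE appears in Plk2 and Plk4 and the TATA box close to the start in Pcdh8, and Cdh2 had no entry in the table of promoters.

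The 6 arrays gave log2 values made by RMA, and the array medians lay between 7.89 and 8.71. Pair 2 was the dim pair, with medians of 7.90 and 7.89. Pair 1 was the most spread, with an SD over the log2 ratios of the whole array of 0.475, against 0.247 and 0.230 in pairs 2 and 3. It was also the pair in which the log2 ratio of gabazine over control was larger at the 5′ than at the 3′ probe sets of 3 rat control transcripts, by a median of 0.50, against -0.02 and -0.08 in the other pairs. Exactly the same value stood on both arrays of a pair for 16.1% to 25.7% of the probe sets, and their cause was not tested. Markers of excitatory neurons were measured for 9 of 10 genes, and their summed linear intensity ran from 9721 to 27859 in control and from 15912 to 25180 in gabazine, with gabazine over control at 0.90, 1.64 and 1.06 in pairs 1 to 3. The hippocampal marker Prox1 of granule cells and Neurod6 of pyramidal cells had mean log2 intensities of 11.08 and 12.21. Summed ratios of interneuron, astrocyte, microglia and vascular markers lay between 0.92 and 1.17 in every pair. Oligodendrocyte markers (9 of 10 measured) ran from 31333 to 51087 in control and from 37911 to 57724 in gabazine, with ratios of 1.13, 1.21 and 0.99. Choroid plexus markers (7 of 8) ran from 4594 to 5295 in control and from 4434 to 13924 in gabazine, with ratios of 3.03, 1.20 and 0.84. In RNA of whole slices fewer cells of a type and less RNA per cell cannot be told apart.

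Among the Polo-like kinases, Plk2 was the member that was higher in gabazine in every pair. Its log2 intensities were 12.68, 12.41 and 12.32 on control arrays 1, 2 and 3 and 13.27, 12.90 and 13.46 on gabazine arrays 1, 2 and 3. Each gabazine array stood above each control array, and Plk2 was the only one of the 10 probe sets for which this held (90 of all probe sets, 0.289%, had all gabazine arrays above all control arrays). The log2 ratios of the pairs were 0.59, 0.49 and 1.14, which are 1.50-fold, 1.40-fold and 2.20-fold. The mean log2 ratio was 0.74 ± 0.35 (SD, n = 3), with a limma standard error of 0.17 and a 95% interval of 0.19 to 1.29. The unadjusted limma p was 0.0236 and the p adjusted over all probe sets was 0.747. Pair 3 held the largest Plk2 ratio, where it ranked 77 of 31099, against ranks of 941 in pair 2 and 2645 in pair 1. Without pair 1, the pair with the 5′ shift, the mean was 0.81 and without pair 3 it was 0.54, but the unadjusted limma p rose to 0.112 without pair 1, to 0.0705 without pair 2 and to 0.169 without the pair as a block.

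Plk1, the mitotic kinase of spindle assembly and mitotic entry, had control values of 9.26, 8.48 and 9.29 and gabazine values of 9.72, 8.38 and 9.35 on the log2 scale. The groups overlapped, and the ratios of 0.46, -0.11 and 0.05 had their only sizeable member in pair 1. The mean was 0.14 ± 0.29 (SD, n = 3), with a 95% interval of -0.33 to 0.60 that included 0 (adjusted p = 0.749). Without pair 1 the mean was -0.03, so that its direction rested on that pair.

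Plk3, a kinase tied to stress responses and the cell cycle, had nearly the same values on both sides. Control arrays read 7.70, 7.38 and 8.26, and gabazine arrays read 7.70, 7.32 and 8.26. The values of pairs 1 and 3 were identical to the last digit, and pair 2 differed by -0.05 on the log2 scale. The mean was -0.02 ± 0.03 (SD, n = 3) with a 95% interval of -0.12 to 0.09 (adjusted p = 0.833). This interval was the narrowest of the 10 probe sets, but it rests on the 2 pairs with identical values, whose cause was not tested. The probe set was also dim, below the array median by 0.93, 0.52 and 0.45 on control arrays 1, 2 and 3, and below it on every gabazine array.

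Plk4, the kinase that starts centriole duplication, had control values of 8.83, 8.86 and 10.09 and gabazine values of 8.46, 8.70 and 10.15. Both groups spanned a wide range because pair 3 was more than 1 log2 unit above the others, and the ratios within pairs were -0.37, -0.17 and 0.06. The mean was -0.16 ± 0.22 (SD, n = 3), with a 95% interval of -0.50 to 0.19 (adjusted p = 0.747). Plk5, the remaining family member and not among the 8 genes, had a single sizeable ratio, 0.46 in pair 2, and identical values in the other pairs. The intervals of Plk1 and Plk2 overlapped, and no test of a difference between the kinases was run.

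Sipa1l1, the spine scaffold that Plk2 phosphorylates, had control values of 10.29, 9.29 and 10.34 and gabazine values of 10.29, 9.13 and 10.31. Pair 1 was tied, and pairs 2 and 3 had log2 ratios of -0.16 and -0.03. The mean of -0.06 ± 0.08 (SD, n = 3) had a 95% interval of -0.22 to 0.10 (adjusted p = 0.747). These are transcript levels, and the amount of the protein, which is the level at which Plk2 is known to act on it, was not measured here.

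Pcdh8 had the largest difference of the 10 probe sets. Its control arrays read 10.19, 8.86 and 8.97, and its gabazine arrays read 12.39, 9.69 and 10.88 on the log2 scale. As deposited the groups overlapped, because the gabazine array of pair 2, the dim pair, lay below the control array of pair 1. After the median of each array was subtracted, the control values were 1.56, 0.97 and 0.27 and the gabazine values 3.68, 1.80 and 2.20, and the groups no longer overlapped. How many of all probe sets separate after that step was not counted, so whether this is unusual is not known. The log2 ratios of the pairs were 2.19, 0.83 and 1.91, that is, 4.57-fold, 1.78-fold and 3.76-fold. The mean log2 ratio was 1.64 ± 0.72 (SD, n = 3), with a limma standard error of 0.34 and a 95% interval of 0.53 to 2.76. The unadjusted limma p was 0.0185 and the adjusted p was 0.747. Its mean ranked 30 of 31099 from the highest, against 241 for Plk2. Without pair 1 the mean was 1.37 with an unadjusted limma p of 0.109, without pair 3 it was 1.51 with 0.115, and without pair 2 it was 2.05.

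Pcdh8 and Plk2 shared a direction in every pair and differed in which pair held the largest log2 ratio. Pcdh8 exceeded Plk2 by 1.60, 0.34 and 0.77 log2 units in pairs 1, 2 and 3, a mean of 0.91 ± 0.64 (SD, n = 3). Pcdh8 was strongest in pair 1 and Plk2 in pair 3, while pair 2 held the smallest ratio of both. The difference was above 0 in all 3 pairs, for which an exact two-sided sign-flip test over pairs gives p = 0.25, the smallest that 3 pairs allow. For scale, the brightest probe set of the housekeeping gene Gapdh, at its 3′ end, had log2 ratios of 0.03, 0.02 and 0.14. The 5′ probe set of Gapdh had 0.53, 0.06 and 0.06, and its middle probe set had 0.42, 0.05 and 0.14. In pair 1 these stood beside 0.59 for Plk2.

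**Figure D2:**
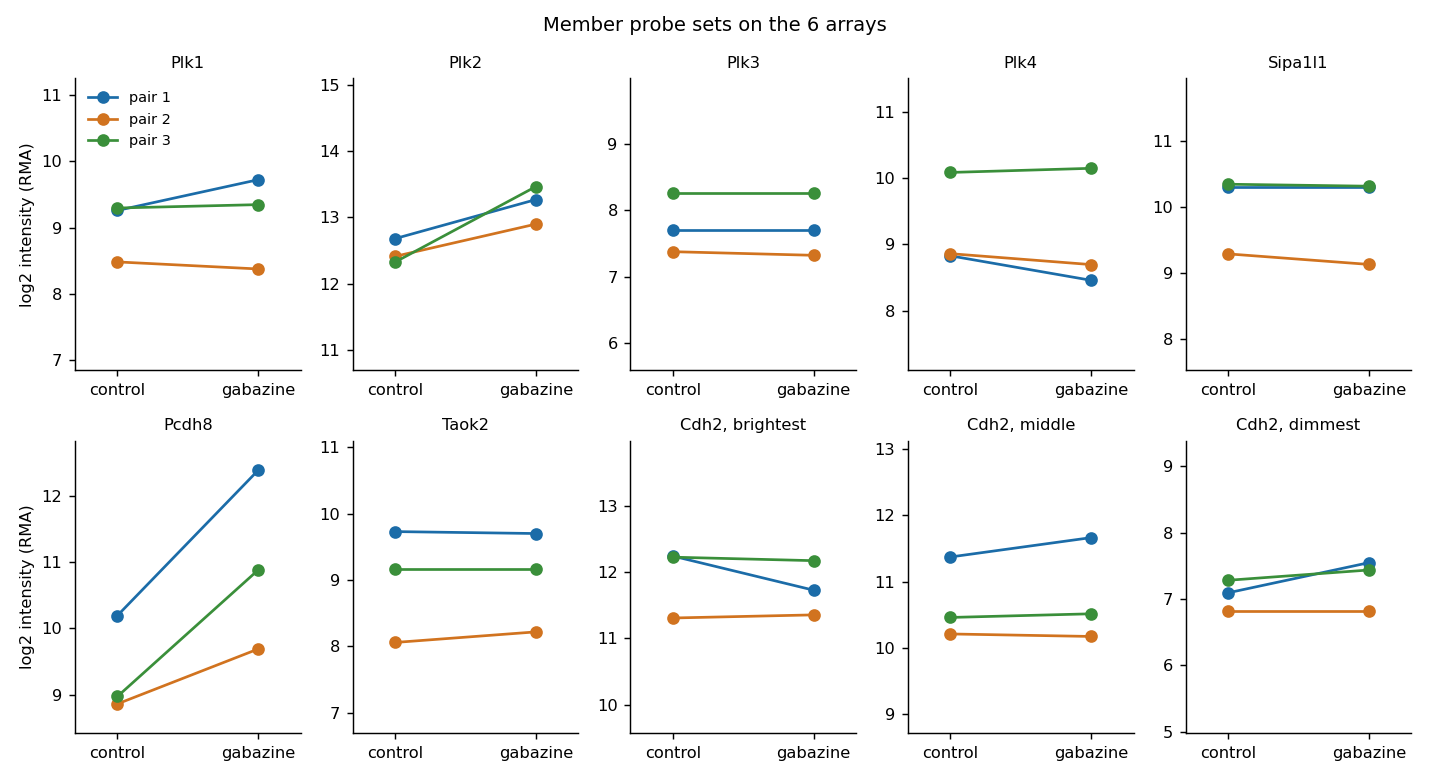
Log2 intensity (RMA) of the 10 probe sets on the 6 arrays, 1 panel per probe set and 1 line per control and gabazine pair, each panel spanning the same number of log2 units. All 3 lines climb for Plk2 and for Pcdh8, and in no other panel do all 3 go the same way.

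Taok2, the kinase that Pcdh8 activates on its way to p38, had control values of 9.73, 8.06 and 9.17 and gabazine values of 9.70, 8.22 and 9.17. Pair 3 was tied, and the other ratios of -0.03 and 0.16 had opposite signs. The mean of 0.04 ± 0.10 (SD, n = 3) had a 95% interval of -0.14 to 0.22 (adjusted p = 0.775), and without pair 2 it was -0.01.

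Cdh2, the classical cadherin of excitatory synapses, was read by 3 probe sets that did not go the same way. The brightest had control values of 12.24, 11.31 and 12.22 and gabazine values of 11.73, 11.35 and 12.17, with ratios of -0.51, 0.05 and -0.05. The middle one had 11.37, 10.21 and 10.46 in control and 11.66, 10.17 and 10.51 in gabazine, with ratios of 0.29, -0.04 and 0.06. The dimmest had 7.09, 6.81 and 7.28 in control and 7.55, 6.81 and 7.44 in gabazine, with ratios of 0.46, 0 and 0.16. The disagreement lay in pair 1, where 1 probe set was lower and the others higher, and in pairs 2 and 3 all ratios were at most 0.16 in size. Their means were -0.17 ± 0.30, 0.10 ± 0.17 and 0.20 ± 0.23 (SD, n = 3), and each of the 3 intervals included 0. The mean over the 3 probe sets was 0.04, of opposite sign to the brightest alone.

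**Figure D3:**
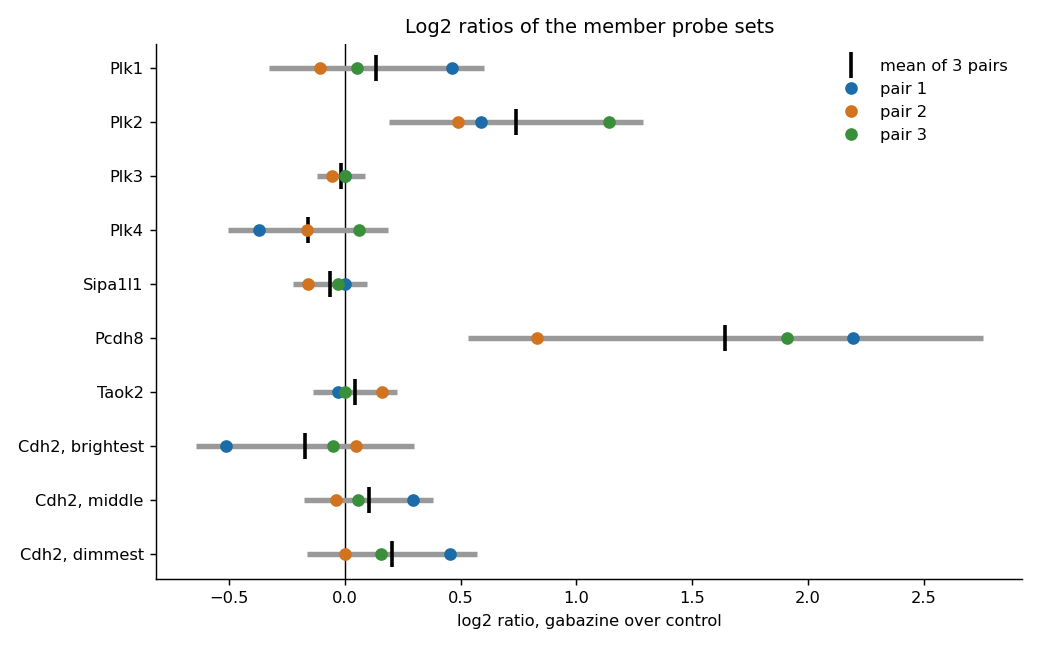
Log2 ratio of gabazine over control for each of the 10 probe sets. Points are the 3 pairs, black ticks the mean and grey bars the 95% interval of the limma fit. The bars of Plk2 (0.19 to 1.29) and Pcdh8 (0.53 to 2.76) lie above 0 and the other bars include 0, before any adjustment for the number of probe sets.

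Over the 10 probe sets, 2 were higher in all 3 pairs and none was lower in all 3, whereas 6.92% of all probe sets were higher and 9.49% lower in all 3. Before adjustment 2 of the 10, Plk2 and Pcdh8, were higher with a p below 0.05 and none was lower. The median of the 10 mean log2 ratios was 0.07, against 0 over all probe sets. Identical values in at least 1 pair were held by 4 of the 10 and by 14754 of all 31099 probe sets. The spread between pairs, as the SD of the 3 log2 ratios, had a median of 0.22 over the 10 and of 0.16 over all probe sets.

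**Figure D4:**
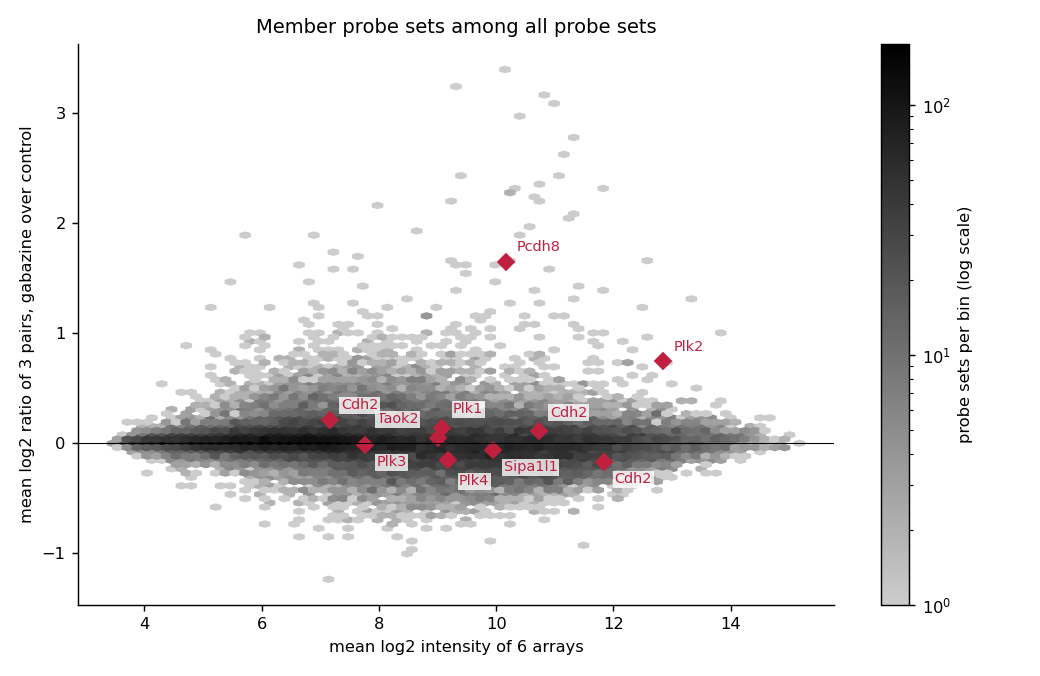
Mean log2 ratio of the 3 pairs against mean log2 intensity of the 6 arrays for all 31099 probe sets, as bins shaded by the number of probe sets on a log scale, with the 10 probe sets as diamonds. Pcdh8 and Plk2 stand above the body of the distribution and the other diamonds lie within it.

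The other genes of these routes were read on the brightest probe set of each gene, and over all 14218 genes 7.79% were higher and 10.8% lower in all 3 pairs, while 2.37% had a higher value and 2.84% a lower value with a p below 0.05 before adjustment. The median over all genes was -0.01. No gene of the lists passed an adjusted p of 0.05. Genes named in these lists with a p of 0.05 or more before adjustment were picked after their values were seen. Of the 100 related genes measured 38 had several probe sets, and for 24 of these another probe set had a mean of opposite sign, so that a direction given here is that of the brightest alone.

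Partners and substrates of Plk2 at the spine were measured for 14 of 17 genes, with a median of 0.05. 2 of them were higher in all 3 pairs and none was lower. They were Nsf, the ATPase that takes SNARE complexes apart, with 0.08, 0.10 and 0.36, and the small GTPase Rap2a with 0.62, 0.18 and 0.02. None of the 14 passed an unadjusted p of 0.05. Rap2b, a close relative of Rap2a, had the largest mean of the list, 0.91, and that mean came from pair 1 with 2.93, against -0.20 and 0 in pairs 2 and 3. The scaffold Pdlim5 (1.53, 0.16 and -0.10) and the Cdk5 activator Cdk5r1 (1.54, 0 and 0) likewise had their large ratio in pair 1. The 2 probe sets of the Ras exchange factor Rasgrf1, a further Plk2 substrate, did not go the same way. The brighter had a mean of -0.08, with 0.04, -0.16 and -0.11. The dimmer, with a mean log2 intensity of 7.59, had 1.70, 1.39 and 1.58 (mean 1.56, below 0.05 in limma before adjustment, adjusted p = 0.747), and does not enter the counts of the list.

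All 7 Rap GTPase-activating proteins related to Sipa1l1 were measured, with a median of -0.03, and 2 of them were lower in all 3 pairs while none was higher. Garnl3 had -0.17, -0.16 and -0.24 (below 0.05 in limma before adjustment, adjusted p = 0.747), and its other probe set had a mean of -0.03. Rap1gap2 had -0.10, -0.08 and -0.28.

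On the route from Taok2 to p38, 11 of 12 genes were measured and the median was 0.04. Mapk14, the main p38 kinase, was higher in all 3 pairs, by 0.03, 0.02 and 0.24. No gene was lower in all 3 and none passed an unadjusted p of 0.05. The sister kinase Taok1 had 1.20 in pair 1 against -0.25 and -0.28 in pairs 2 and 3, and Taok3 had a mean of -0.05.

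Pcdh8 was set apart in size from the other non-clustered protocadherins, adhesion proteins that lie outside the clustered arrays of protocadherin genes. Of the 8 measured of 12, the 7 others had means between -0.25 and 0.10, and the median of the 8 was -0.09. Pcdh18 was lower in all 3 pairs, by -0.14, -0.18 and -0.23 (below 0.05 in limma before adjustment, adjusted p = 0.747). Pcdh19 had ratios of 0, 0.60 and -0.59, and Pcdh10 and Pcdh17 had means of -0.25 and -0.22.

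Classical cadherins and catenins, the family and the cytoplasmic partners of Cdh2, were measured for 15 of 18 genes with a median of 0. No gene was higher in all 3 pairs and only Cdh8 was lower, by -0.94, -0.07 and -0.12. The catenins Ctnnb1 and Ctnnd2, which bind the cadherin tail, had means of -0.05 and -0.04, and none of the 15 passed an unadjusted p of 0.05. The other probe sets of Ctnnb1 disagreed, with means of 0.72, -0.23 and 0.03. The highest of them was above 0 and the lowest below 0 in all 3 pairs.

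Mitotic genes were included because Plk1 and Plk4 belong to them, and 23 of 26 were measured. Their median was -0.15, with pair medians of -0.07, -0.11 and -0.09. 9 of the 23 were lower in all 3 pairs and none was higher, and 2 had an unadjusted p under 0.05. These were Aurka, a spindle kinase that activates Plk1, with -0.17, -0.22 and -0.21 and the cyclin Ccna2 with -0.11, -0.17 and -0.17, both at an adjusted p of 0.747. Plk1, with a mean of 0.14, was the highest of the 23, whereas Plk4, with -0.16, lay close to the median. The summed intensity of the 23 genes in gabazine was 0.92 of control in each of the 3 pairs. Their share lower in all 3 pairs, 9 of 23, stood beside 10.8% of all genes, and mitotic genes vary together within a sample, so that the 9 are not separate observations.

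Of the genes of AMPA receptor endocytosis and spine loss 22 of 23 were measured, with a median of 0.09. 2 were higher in all 3 pairs, a share close to that of all genes. They were subunits of the clathrin adaptor AP-2, Ap2m1 with 0.16, 0.12 and 0.29 (below 0.05 in limma before adjustment, adjusted p = 0.747) and Ap2b1 with 0.12, 0.08 and 0.41, whereas the AP-2 subunit Ap2a2 had 0.14, -0.03 and 0.11, and the other Ap2b1 probe set had 2.14, -0.22 and 0. 2 were lower in all 3 pairs, the receptor-anchoring protein Grip1 with -0.12, -0.39 and -0.02 and the ubiquitin ligase Ube3a with -0.77, -0.01 and -0.04, and each had another probe set with a mean above 0 (0.04 for Grip1 and 0.30 for Ube3a). The AMPA receptor subunits Gria1, Gria2, Gria3 and Gria4 had means of 0.15, 0.15, -0.19 and -0.15 on their brightest probe sets, and none of these held a direction in all 3 pairs. Other probe sets had the opposite sign for Gria2 (-0.10), Gria3 (0.27) and Gria4 (0.17).

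**Figure D5:**
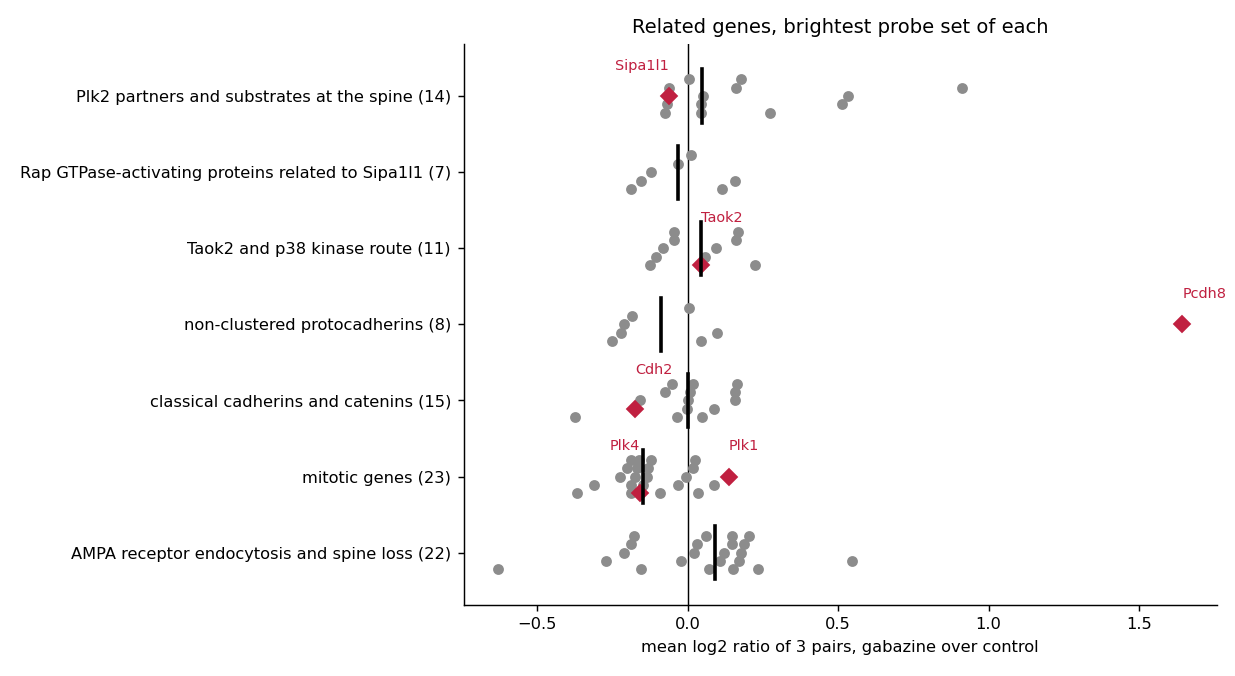
Mean log2 ratio of the 3 pairs for the brightest probe set of every measured gene in 7 lists of related genes, with the number measured in brackets. Diamonds are members of the 8 genes, grey points the other genes and black bars the list medians. Pcdh8 lies to the right of all other points, and the list medians run from -0.15 for mitotic genes to 0.09 for AMPA receptor endocytosis and spine loss.

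The genes with the pattern most like that of Plk2 and of Pcdh8 were those with the smallest Euclidean distance over the 3 log2 ratios, among 14218 genes. Nearest to Plk2 was the splicing factor Cwc25, with 0.66, 0.54 and 1.05 (distance 0.13), followed by the mitochondrial carrier Slc25a25 with 0.48, 0.50 and 0.91 (distance 0.25) and Zfp36, which binds AU-rich messages, with 0.40, 0.63 and 1.04 (distance 0.26). Nearest to Pcdh8 was Dusp5, a nuclear phosphatase of ERK, with 2.21, 0.76 and 1.89 (distance 0.07). The immediate early gene Ier2, with 1.67, 0.92 and 1.57 (distance 0.63), and Gadd45g, a growth arrest gene, with 2.62, 1.23 and 2.25 (distance 0.68), came next. The distances are not scaled and grow with the size of the ratios, so that those of Plk2 and Pcdh8 cannot be set against each other. They rest on 3 pairs and are a description without a test.

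Where cell type markers moved, their values stood as follows beside the results. Choroid plexus markers were higher in pair 1, in which Ttr, the thyroid hormone carrier of that epithelium, had 4.59 and the water channel Aqp1 had 1.56, against 0.14 and 0.02 in pair 2 and 0.07 and 0.08 in pair 3. The Pcdh8 ratios of 2.19, 0.83 and 1.91 stood beside choroid plexus sums of 3.03, 1.20 and 0.84 of control. Enpp2, the brightest of the choroid plexus markers, had 0.02, 0.43 and -0.43, and it was the only one below 0 in pair 3. Excitatory markers were higher in pair 2, the pair with the smallest ratios of Plk2 and Pcdh8. Of the 9 oligodendrocyte markers measured, 6 had a mean above 0 and 3 below, and 3 were higher in all 3 pairs and none lower. Over all genes 7.79% were higher and 10.8% lower in all 3 pairs, and 2.37% were higher with a limma p below 0.05 before adjustment. Markers of 1 cell type vary together within a sample, so that these markers are not separate observations. Mog (0.41, 0.47 and 0.21) and Mbp (0.26, 0.35 and 0.12), both myelin genes, had a p below 0.05 in limma before adjustment only (adjusted p = 0.747), while the myelin gene Mobp had -0.15, 0.35 and -0.50, and the other Mbp probe sets had means of -0.07 and 0.81. The part of these shifts in the values of the 8 genes was not tested.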

How the data were processed

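RNA of 3 untreated and 3 gabazine-treated samples of rat hippocampal cultures, 1 of each per replica, was hybridised to 6 Affymetrix RAT2302 arrays. This small number limits the precision. The deposited log2 intensities were made by the authors with RMA from the scanned images, of a version not given in these sources. The annotation gave 20832 probe sets 1 symbol, 436 several and 9831 none, and only those with 1 symbol were named. The design text places treated and untreated cultures of the same littermates in a replica, and the deviations of the 2 arrays of a pair from the group means had correlations of 0.794, 0.664 and 0.853. The replica number was therefore a block in limma 3.58.1 (R 4.3.3), fitted to all probe sets with Benjamini-Hochberg adjustment and 2 residual degrees of freedom. All 6 arrays entered the fit, with 0 columns unused.

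The brightest probe set stood for a gene. Named were all probe sets of the 8 genes, up to 3 genes per list and direction with an unadjusted p under 0.05 and 1 sign in all 3 pairs, the 3 genes nearest to Plk2 and to Pcdh8, and Gapdh. Other genes of the lists, and Plk5, were named after their values were seen. The 8 genes, the 14 lists and the tests were chosen with earlier results of these data known. On simulated data with the probe sets' own spread, 24% of 100 changes of 1 log2 unit and 47% of 100 changes of 2 log2 units were recovered, with 1 false call. With the median spread for every probe set 100% of both were recovered, with 11 false calls. In these data the spread differs between probe sets, so the second setting does not show what the fit can recover here. Alternatives were the fit without the block, replicas left out, other scalings and moderation, and dim or tied probe sets left out. Other means and a joint empirical distribution computed after the methods were run too.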

Additional observations from a re-analysis of the deposited data

How the results depend on the processing

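Plk2 and Pcdh8 kept their direction in all 11 alternatives run for each, with mean log2 ratios of 0.54 to 0.86 and of 1.37 to 2.05. Most of these alternatives could not reverse it. The fits without the block, with other moderation, or without dim or tied probe sets left both means unchanged. With all 3 log2 ratios above 0, leaving out a replica or averaging linear ratios could not reverse the sign either. Only the other scalings could have done so. Neither gene passed the adjusted threshold in any limma fit (adjusted p from 0.679 to 1 for both). Their unadjusted limma p ran from 0.0072 to 0.169 for Plk2 and from 0.0022 to 0.115 for Pcdh8, and exceeded 0.05 for Plk2 without the replicate block (0.169), without replica 1 (0.112) or replica 2 (0.0705), and for Pcdh8 without replica 1 (0.109) or replica 3 (0.115). Plk4 (-0.27 to -0.05) and Sipa1l1 (-0.09 to -0.01) kept their sign, and Plk3 ran from -0.05 to 0. With replicas left out in turn, Plk1 ran from -0.0276, without replica 1, to 0.258, and Taok2 from -0.0146, without replica 2, to 0.0798. Cdh2 was 0.0444 as the mean of its probe sets. Without the replicate block the paired fit's count of 0 probe sets higher became 14, and that of probe sets lower remained 0. A joint empirical distribution, computed here after the description in the methods, gave 1687 higher and 2265 lower of 31099 at a share of 0.005. The share is the part of all probe sets at least as high, or as low, in all 3 pairs, and is not a p-value. Plk2 (share 0.00151) and Pcdh8 (share 0.000514) were among the higher ones. The study's own count at 0.005 is of up-regulated genes, not probe sets, and is smaller. No scaling moved the median of all probe sets by more than 0.02. No detection measure was used here, so the signal over background of the dimmer probe sets is not known, and identical values within a pair limit what a ratio of 0 can show.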
